A study of Homo sapiens with 12 samples.

Results

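The MYC, MAX and MXD network was examined in NT2/D1 cells at the level of messenger RNA. It was taken as 10 genes, MYC, MYCN, MYCL, MAX, MXD1, MXD3, MXD4, MXI1, MNT and MLX, and every array probe whose annotation names 1 of them was included. This gave 21 of the 47231 probes on the array and 10 of the 20045 genes that have a named probe. Of these 21 probes, 12 were detected above the negative control beads on at least 3 of 12 arrays and entered the tests. They cover 7 genes. All probes of MYCL, MXD1 and MXD3 fell short of that limit. By RefSeq, MYC lies on chromosome 8, MYCN and MXD1 on chromosome 2, MYCL on chromosome 1, MAX on chromosome 14, MXD3 on chromosome 5, MXD4 on chromosome 4, MXI1 on chromosome 10, and MNT and MLX on chromosome 17.

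Members of this network are transcription factors of the basic helix-loop-helix leucine zipper type, which bind DNA as pairs. MYC, MYCN and MYCL pair with MAX, occupy a short DNA word called the E-box and activate genes of ribosome production, nucleotide synthesis and metabolism. MXD1, MXD3, MXD4, MXI1 and MNT also pair with MAX and bind the same word, but recruit SIN3 corepressor complexes. MLX is a MAX-like partner that joins MXD1, MXD4, MNT and the glucose-sensing factors MLXIP (MondoA) and MLXIPL (ChREBP). In pluripotent cells MYC and MYCN are known for sustaining self-renewal and rapid division.

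NT2/D1 is an established human embryonal carcinoma line, the stem cell type of nonseminoma testicular germ cell tumors. Groups of 3 arrays each were NT2/D1 cells given 10 nM 5-aza deoxycytidine (5-aza, a nucleoside analog that locks DNA methyltransferases onto DNA) for 1 day, cells given the same daily dose for 3 days, cells exposed to 0.5 µM cisplatin (a platinum drug that crosslinks DNA) for 6 hours and harvested 24 hours after its removal, and controls, which the sample labels call untreated and the series design calls vehicle treated. All groups share the parental line and carry no engineered change. The design speaks of biological triplicates, but the labels do not say that replicates were separate cultures, so the p-values may measure only the spread between these samples. All arrays sit on a single chip, group after group, and the position on it cannot be told apart from the treatment.

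The cisplatin arrays differed more among themselves than the others did. The median standard deviation over genes was 0.12 at 1 day of 5-aza, 0.13 at 3 days, 0.36 with cisplatin and 0.17 in controls (normalized log2 intensity), and cisplatin replicate 3 had 19824 detected probes, where the other 11 arrays had fewer. All 9 measured markers of embryonal carcinoma were detected on all 12 arrays. Their mean log2 intensity per array was 12.49 to 12.57 at 1 day, 12.00 to 12.12 at 3 days, 12.25 to 12.52 with cisplatin and 12.57 to 12.60 in controls, and 2 of the 9 passed the test as lower at 3 days and none as higher. The part of that shift in the results on the network was not tested, and fewer cells of a type and less RNA per cell cannot be told apart in bulk samples. Genes listed as markers of other cell types were detected in part, which does not show that such cells were present. On all 12 arrays were detected 3 of 4 epithelial markers (EPCAM, KRT8 and KRT18, not KRT5), 3 of 5 neuronal ones (SYN1, MAP2 and DCX, not SNAP25 or RBFOX3) and 1 of 6 of stroma (PDGFRB, with LUM on none). Of 4 blood markers CD14 was detected on 7 arrays and CD3E on none, and of 3 trophoblast markers none was detected on more than 1 array. The mean of the neuronal list was 7.03 to 7.17 at 1 day, 6.99 to 7.05 at 3 days, 6.98 to 7.06 with cisplatin and 7.14 to 7.19 in controls, and the part of this in the results was not tested.

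The E-box that these factors bind has the letters CACGTG, which read the same on both strands. It was looked for in RefSeq promoters, from 250 bases before to 50 bases after each annotated start (GRCh38.p14). The table matched 9 of the 10 genes, not MYC, with 12 starts. The word was present in the promoters of 3 of these 9 genes, against 12.9% of the 9001 tested genes in the table and 8.77% of all its genes. Counted by promoter it was in 3 of 12, against 7.26% of all 35116 promoters. The 3 genes are shown because their own promoters hold the word that their proteins, or those of their partners, bind. Capitals mark the E-box, and sequences run 5′ to 3′ on the strand of the gene. The E-box of MXD4 begins 238 bases before the start (chr4:2262312-2262359, minus strand), that of MNT 193 bases before it (chr17:2401218-2401283, minus strand) and that of MLX 50 bases before it (chr17:42567020-42567085, plus strand).
MXD4: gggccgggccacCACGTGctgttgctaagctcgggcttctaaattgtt
MNT: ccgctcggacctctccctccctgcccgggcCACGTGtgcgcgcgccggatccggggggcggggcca
MLX: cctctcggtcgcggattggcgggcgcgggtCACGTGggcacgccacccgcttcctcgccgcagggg
No CACGTG was found in these windows of MYCN, MYCL, MAX, MXD1, MXD3 and MXI1, which says only that these letters are not in these stretches.

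MYC, the network's broadly acting activator, fell after 3 days of 5-aza and passed no test at 1 day of 5-aza or with cisplatin. Its brighter probe, ILMN_1680618, read 10.23, 10.07 and 10.23 at 1 day, 7.89, 8.12 and 8.09 at 3 days, 10.26, 10.01 and 8.86 with cisplatin and 9.86, 10.18 and 10.09 in controls (normalized log2 intensity). All 3 arrays of the 3 day group lay below all other 9 arrays, and cisplatin replicate 3 was the lowest of those 9. The level averaged 8.03 ± 0.12 at 3 days and 10.05 ± 0.16 in controls (SD, n = 3 each), a 4.03-fold fall (log2 difference −2.01 ± 0.28, standard error of the model, limma adjusted p = 0.000315). At 1 day the log2 difference from control was 0.13 ± 0.28 (adjusted p = 0.96).

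The other MYC probe, ILMN_2110908, moved in the same way. It read 7.93, 8.26 and 8.34 at 1 day, 5.53, 5.37 and 5.34 at 3 days, 8.24, 8.22 and 7.65 with cisplatin and 8.14, 7.83 and 8.01 in controls. At 3 days it was not detected on any of the 3 arrays, whereas it was detected on all 9 others. Where every array of a group is below detection, the fold was computed against the lowest normalized signal that passes detection on each of those arrays (or the probe's own signal where that is higher) and is a lower bound. On this reckoning MYC was at least 3.02-fold lower at 3 days than in controls, with measured means of 5.416 at 3 days and 7.995 in controls (fitted log2 difference −2.58 ± 0.19, adjusted p = 1.48e-06).

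**Figure D1:**
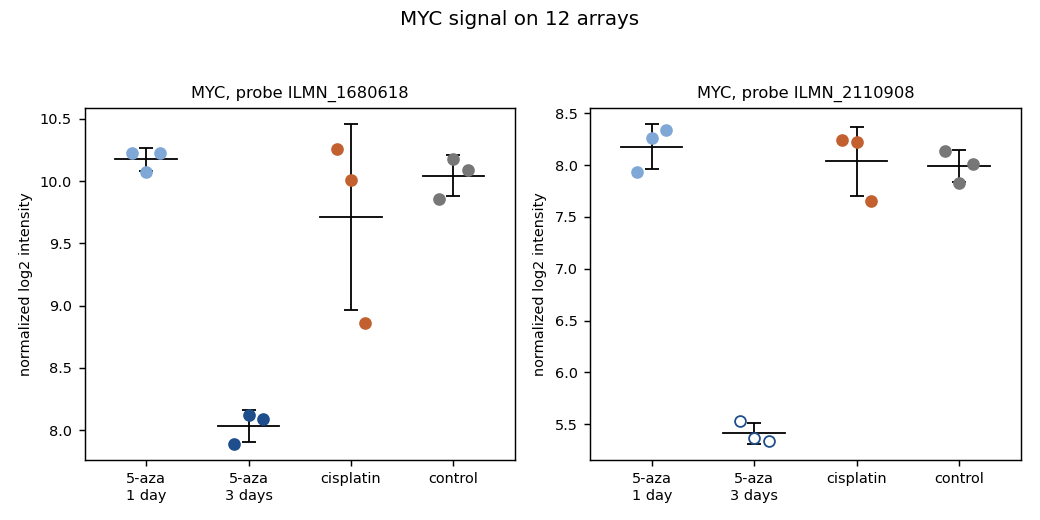
Normalized log2 intensity of the 2 MYC probes on each of the 12 arrays, by group on the x axis. Filled points are arrays on which the probe was detected, open points arrays on which it was not, and lines with bars are means ± SD. For both probes the 3 arrays of 3 days of 5-aza lie below all others, at 7.89 to 8.12 and at 5.34 to 5.53.

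MYC was also lower at 3 days than at 1 day of 5-aza and than with cisplatin, which asks whether the fall came late and whether it was shared with another damaging agent. Against 1 day, the log2 differences were −2.14 ± 0.28 (adjusted p = 0.000323) and −2.76 ± 0.19 (adjusted p = 1.61e-06, at least 3.42-fold) for the brighter and the other probe. Against cisplatin they were −1.68 ± 0.28 (adjusted p = 0.00126) and −2.62 ± 0.19 (adjusted p = 1.98e-06, at least 3.11-fold). For the brighter probe the last comparison was not called with unmoderated tests of the kind the methods name (adjusted p = 0.181). Cisplatin itself was set at −0.34 ± 0.28 (adjusted p = 0.494) and 0.04 ± 0.19 (adjusted p = 0.919) from control, and without cisplatin replicate 3 the value of the brighter probe was 0.09 (adjusted p = 0.770). The study named MYC from these same samples, so its fall here is not independent evidence.

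MYCN, the relative of MYC that is typical of embryonal and neural cells, has 2 kept probes that did not behave alike. The brighter probe, ILMN_2219767, read 12.89, 12.92 and 12.89 at 1 day, 12.55, 12.72 and 12.78 at 3 days, 12.83, 12.88 and 12.86 with cisplatin and 12.77, 12.86 and 12.86 in controls. At 3 days the arrays overlapped with controls but lay below all 1 day and all cisplatin arrays, and at 1 day they lay above all controls. None of these differences passed, with −0.15 ± 0.13 at 3 days against control (adjusted p = 0.502, 95% interval −0.44 to 0.14) and 0.07 ± 0.13 at 1 day (adjusted p = 0.954).

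The dimmer MYCN probe, ILMN_1653761, read 8.61, 8.20 and 8.53 at 1 day, 7.54, 7.75 and 7.85 at 3 days, 8.06, 8.94 and 10.74 with cisplatin and 9.29, 8.78 and 8.25 in controls. All 3 day arrays were below all arrays of every other group, and the cisplatin arrays spread over almost the whole range. Against control the log2 difference at 3 days was −1.06 ± 0.48 (adjusted p = 0.161), where 6.28% of all genes were called lower. It passed without cisplatin replicate 3 (adjusted p = 0.00984, 11.7% of all genes lower) or without the cisplatin arrays (adjusted p = 0.00312, 16.9%). Against cisplatin it was −1.53 ± 0.48 and passed (adjusted p = 0.0346), but that call was lost without cisplatin replicate 3 (−0.79, adjusted p = 0.0786), without cisplatin replicate 2 (adjusted p = 0.0544) and without any 1 of the 3 day arrays (adjusted p = 0.0747 to 0.103).

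MYCL, the third MYC protein gene, was undetected on all arrays by its 3 probes, ILMN_1754541, ILMN_1795270 and ILMN_1803650. Their normalized values ran from 5.19 to 5.91, in the range of the background, and no fold is given.

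MAX, the obligate partner of the MYC proteins, is read by 4 probes, all dim. The brightest, ILMN_2363426, was detected on 8 of 12 arrays and read 6.05, 6.50 and 6.17 at 1 day, 6.70, 5.89 and 6.59 at 3 days, 6.28, 7.58 and 8.02 with cisplatin and 6.35, 6.45 and 6.65 in controls. Cisplatin replicates 2 and 3 were above all other arrays, while replicate 1 was not detected. The cisplatin difference of 0.81 ± 0.35 did not pass (adjusted p = 0.206), and without cisplatin replicate 1 it was 1.31 and did (adjusted p = 0.00211). That fit called 11.1% of all genes higher and 16.2% lower with cisplatin, against 0.817% and 0.35% in the main fit. The 3 day difference from control was −0.09 ± 0.35 (adjusted p = 0.891).

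The dimmest MAX probe, ILMN_1704236, was detected on cisplatin replicate 3 alone. It read 6.28 there and 6.03 on cisplatin replicate 2, above all other arrays (5.31 to 5.61), with 5.34 on cisplatin replicate 1, and no fold is given. The remaining MAX probes did not pass. ILMN_1706546, detected on 6 arrays, stood at −0.22 ± 0.22 with cisplatin (adjusted p = 0.578) and 0.20 ± 0.22 at 3 days (adjusted p = 0.595), and ILMN_1802457, detected on 3 arrays, at −0.07 ± 0.23 and −0.06 ± 0.23.

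Among the repressors that compete for MAX, MXD4 and MNT were detected on all 12 arrays, and MXI1 on 11. MXD4 (ILMN_1756541) read 8.87, 8.69 and 9.06 at 1 day, 9.11, 8.91 and 9.27 at 3 days, 8.34, 9.06 and 7.74 with cisplatin and 8.55, 8.88 and 8.40 in controls. The 3 day arrays lay above all controls, with the lowest 3 day array at 8.91 and the highest control at 8.88. The difference was 1.40-fold (log2 0.49 ± 0.27) and did not pass (adjusted p = 0.251, 95% interval −0.09 to 1.06). It passed where only the 5-aza 3 day and control arrays were fitted (adjusted p = 0.0402) or where the cisplatin arrays were left out (adjusted p = 0.0286), and under median scaling it was 0.23 (adjusted p = 0.500). Against cisplatin it was 0.71 ± 0.27 (adjusted p = 0.0672), and without cisplatin replicate 2, 1.06 (adjusted p = 0.00759).

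MXI1, a MAX-binding repressor also called MXD2, has 4 probes, of which ILMN_1670570 was kept. It read 6.44, 6.49 and 6.69 at 1 day, 6.50, 6.88 and 6.61 at 3 days, 6.65, 6.62 and 6.43 with cisplatin and 6.33, 6.62 and 6.25 in controls, and the groups overlapped. The 3 day difference was 0.26 ± 0.16 (adjusted p = 0.308). A dimmer MXI1 probe, ILMN_1794074, was undetected on all 12 arrays and read 5.38, 5.36 and 5.55 at 1 day, 5.64, 6.03 and 6.06 at 3 days, 5.38, 5.25 and 5.31 with cisplatin and 5.41, 5.23 and 5.32 in controls. Its 3 day values lay above all others although each was below detection, so no fold is given. In a limma fit without the detection filter it passed as higher at 3 days against control (adjusted p = 0.0121), where 5.18% of 20045 genes were higher. It also passed there against 1 day (adjusted p = 0.0477, 3.07% of genes higher) and against cisplatin (adjusted p = 0.0107, 7.07%). The remaining MXI1 probes, ILMN_1663497 and ILMN_1793915, ran from 5.07 to 5.81 with no detected array. In the unfiltered fit neither passed at 3 days against control (adjusted p = 0.806 and 0.868). ILMN_1793915 is annotated to the same transcript as ILMN_1794074.

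MNT, the broadly expressed antagonist of MYC, read 8.07, 8.45 and 8.51 at 1 day, 7.96, 8.06 and 8.31 at 3 days, 8.03, 8.56 and 8.54 with cisplatin and 8.52, 8.29 and 8.40 in controls (ILMN_1792910). The highest 3 day array, 8.31, was above the lowest control, 8.29, and the difference of −0.29 ± 0.19 did not pass (adjusted p = 0.328, 95% interval −0.70 to 0.11). MXD1 (ILMN_2214678) and MXD3 (ILMN_1711904), MAX-binding repressors known from differentiating and from dividing cells, were undetected on all arrays, at 5.16 to 5.56 and 5.26 to 6.02.

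MLX read 7.48, 7.06 and 7.11 at 1 day, 7.48, 7.11 and 6.88 at 3 days, 6.97, 7.56 and 7.69 with cisplatin and 7.23, 7.27 and 7.20 in controls (ILMN_2401618). Every treated group spread on both sides of the controls, and the 3 day difference was −0.07 ± 0.21 (adjusted p = 0.858, 95% interval −0.53 to 0.38). Its other probe, ILMN_1792207, was detected on 3 arrays and stood at 0.06 ± 0.22 at 3 days (adjusted p = 0.896).

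**Figure D2:**
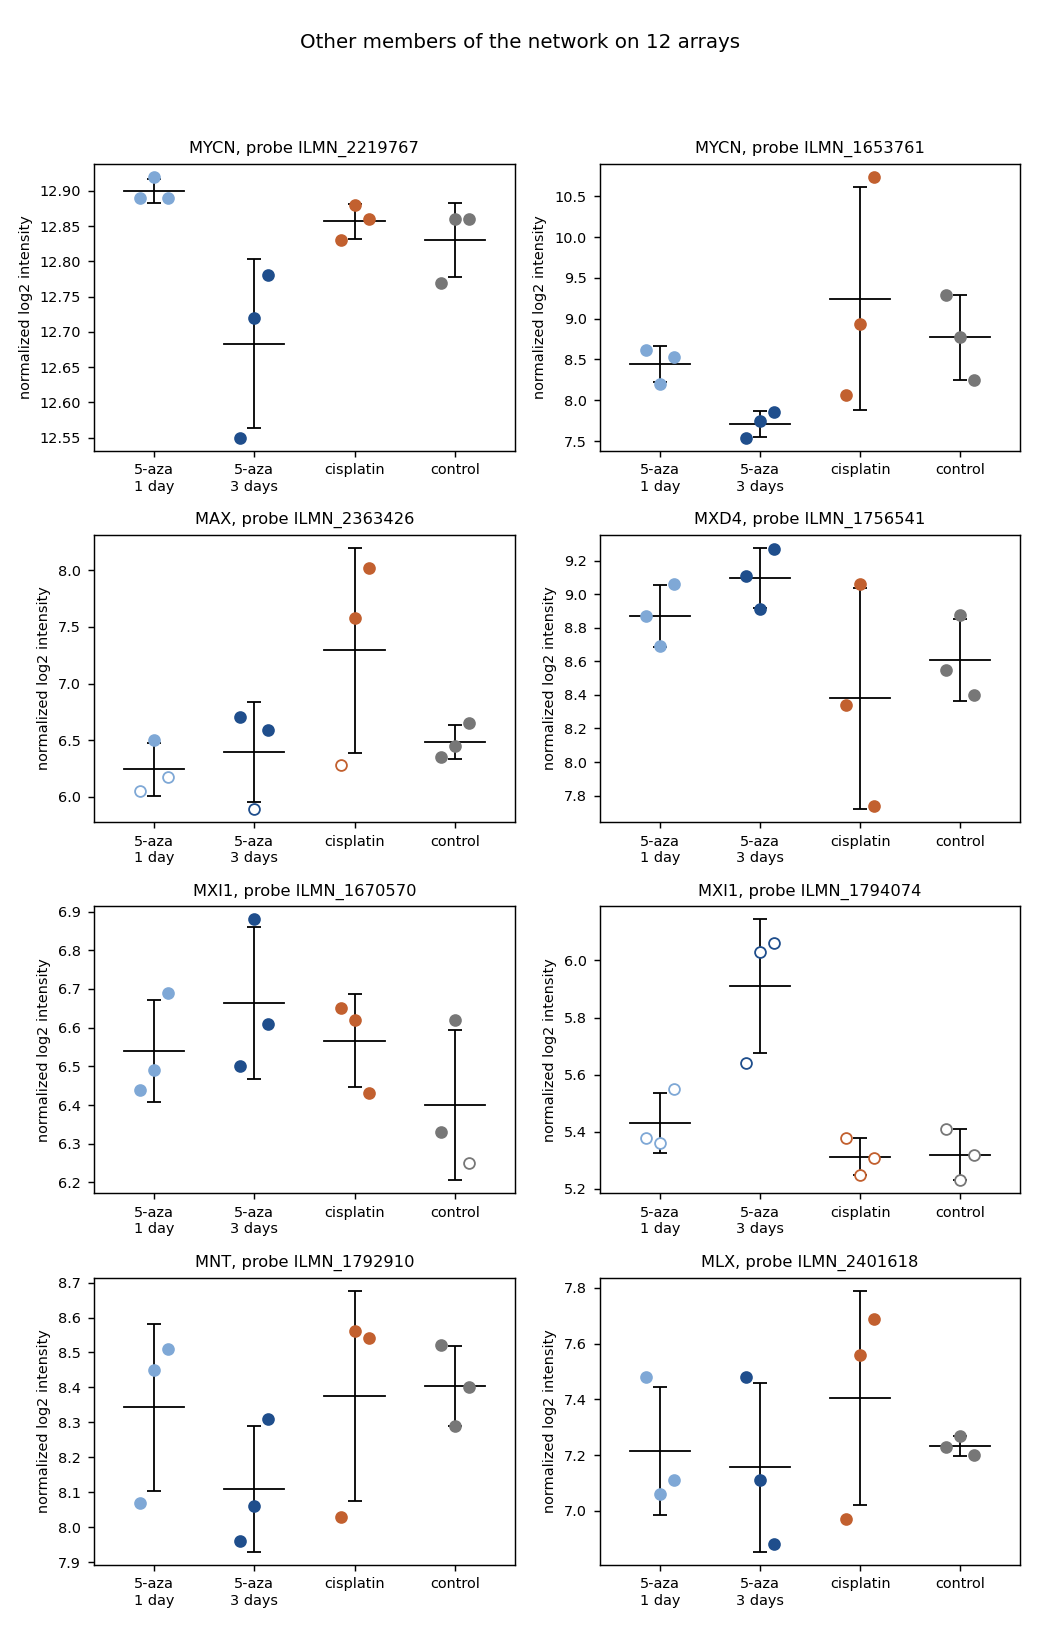
Normalized log2 intensity of 8 probes of MYCN, MAX, MXD4, MXI1, MNT and MLX on each array, by group on the x axis, each panel on its own scale. Filled points were detected and open points were not, and lines with bars are means ± SD. The panels show the wide cisplatin values of MYCN ILMN_1653761 (8.06 to 10.74) and MAX (6.28 to 8.02), and the MXD4 values at 3 days (8.91 to 9.27) above the controls.

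Counted over the genes, with each gene given by its brightest kept probe, MYC alone passed in each comparison that called any member. At 3 days of 5-aza against control, 1 of the 7 measured genes was lower, 0 higher and 6 did not pass, where limma called 6.28% of all 11139 genes lower and 10.1% higher. The median log2 difference of the 7 was −0.09, against 0.01 for all genes. Arrays did not overlap for MYC (below) and MXD4 (above), against 22.3% of all genes below and 26.3% above. At 1 day of 5-aza limma called 0 of 7, and 0 at an unadjusted p under 0.05, where it called 0% of all genes and 5.38% had an unadjusted p under 0.05. No other tool or setting tried called a member at 1 day. Unmoderated tests called 1 of all 11139 genes there, so a count of 0 at 1 day says nothing particular about any group of genes. The arrays of 1 of the 7, MYCN, lay above all controls, against 15.2% of all genes.

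With cisplatin limma called 0 of 7, with 1 at an unadjusted p under 0.05 (MAX), where it called 1.17% of all genes and 21.5% had an unadjusted p under 0.05. Unmoderated tests called 0 of all 11139 genes with cisplatin, so their count says nothing about any group of genes in that comparison. Between 3 days and 1 day of 5-aza, 1 of 7 was lower (2.94% of all genes), and between 3 days of 5-aza and cisplatin, 1 of 7 was lower (9.8% of all genes). Over the 4 groups together, the moderated F test passed for MYC (adjusted p = 0.000452) and for none of the other 6, against 19.6% of all genes. The 3 treatments share the same control arrays, so their values are given side by side and not compared as independent.

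**Figure D3:**
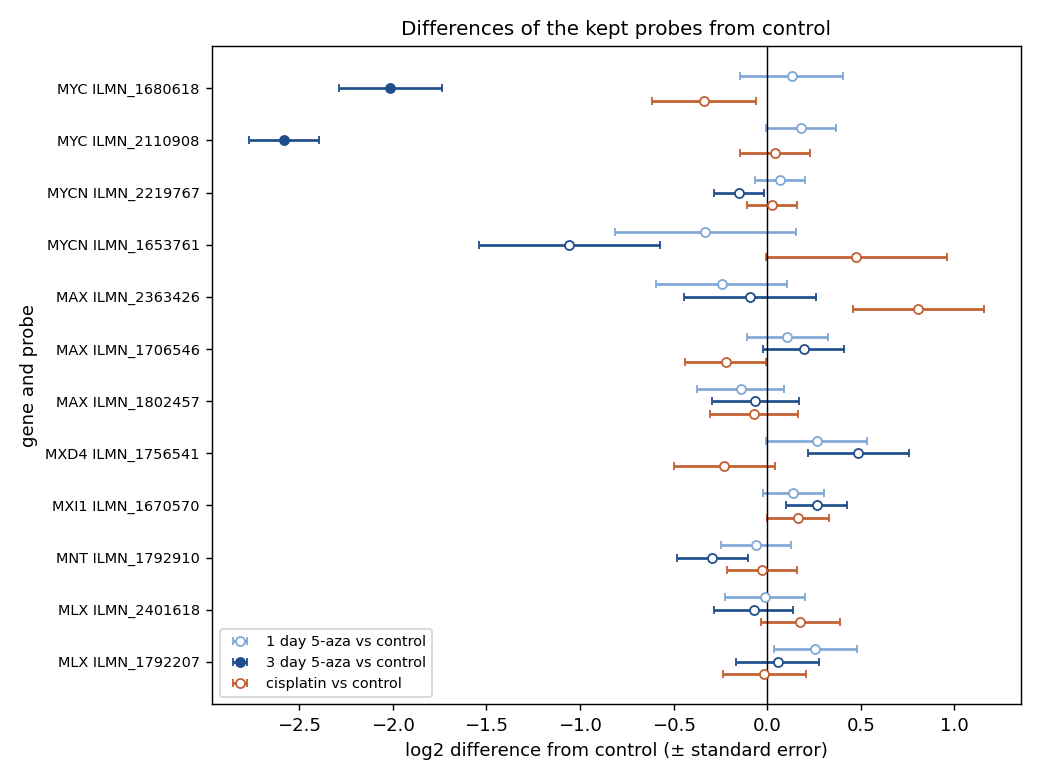
Log2 difference from control, on the x axis, of the 12 kept probes at 1 day of 5-aza, 3 days of 5-aza and cisplatin. Bars are standard errors of the model, filled points have a limma adjusted p under 0.05 and open points do not. The MYC probes at 3 days, at −2.01 and −2.58, are the only filled points.

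Over the 12 arrays MYC and MYCN (brightest probes) varied with a Pearson r of 0.77, and MAX and MLX with 0.65. These describe 12 arrays that share their treatments and 1 chip. The genes whose pattern over the 12 arrays was most like that of MYC, among 8110 detected candidates, were MT1X, a metallothionein (r = 0.98), LANCL2 (r = 0.97), the transcription factor SALL3 (r = 0.97), the scaffold attachment factor SAFB2 (r = 0.97) and PRTFDC1 (r = 0.96).

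MYC pairs with MAX, but MGA, MLXIP and MLXIPL also take MAX or MLX as partners. MLXIPL, the glucose-responsive partner of MLX, rose at 3 days. It read 5.77, 6.04 and 6.44 at 1 day, 7.62, 7.69 and 7.35 at 3 days, 5.66, 6.38 and 6.08 with cisplatin and 5.9, 6.2 and 6.11 in controls. It was undetected in all controls and detected on every 3 day array, at least 2.32-fold higher, with means of 7.55 at 3 days and 6.07 in controls (fitted log2 difference 1.48 ± 0.21, adjusted p = 0.00047). MGA, a large MAX-binding repressor, stood at 0.03 ± 0.26 (adjusted p = 0.953), and MLXIP had no kept probe.

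Genes that MYC is known to activate leaned lower at 3 days of 5-aza. The study reported MYC target genes as repressed from these same samples, and the list was chosen with earlier results known. The lean is therefore not independent evidence. Of 50 listed genes of nucleotide, polyamine and ribosome production and metabolism, 44 were tested, of which 6 were lower, 1 was higher and 37 did not pass. Over all genes 6.28% were lower and 10.1% higher. The median log2 difference of the list was −0.29, against 0.01 for all genes, and 34 of 44 values were below 0, against 48.5% of all genes. ODC1, the rate-limiting enzyme of polyamine synthesis, read 12.12, 12.17 and 12.00 at 1 day, 10.74, 10.60 and 10.79 at 3 days, 12.12, 12.69 and 12.98 with cisplatin and 12.47, 12.36 and 11.94 in controls. Its 3 day arrays lay below all others, 2.93-fold lower than controls (log2 −1.55 ± 0.21, adjusted p = 0.000302).

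The others called lower were GRWD1, a histone-binding ribosome assembly factor (log2 −1.20 ± 0.23), RRP12 (−1.02 ± 0.15) and PPAN (−0.85), both of ribosomal subunit maturation, LDHA, lactate dehydrogenase A (−0.60), and DKC1, the pseudouridine synthase of small nucleolar RNPs (−0.52). SLC7A5, a transporter of large neutral amino acids, was called higher (log2 0.95 ± 0.23, adjusted p = 0.0148), a call lost without control replicate 1 or without 5-aza 3 day replicate 1 or 3. Nucleolin (NCL) and CAD, the multi-enzyme of pyrimidine synthesis, did not pass, at −0.29 (adjusted p = 0.221) and −0.28 (adjusted p = 0.533).

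The count of activated targets depended on the arrays fitted. It was 3 lower without control replicate 1 or 2 or without 5-aza 3 day replicate 2 or 3, where 2.56% to 3.6% of all genes were lower. It was 12 lower without cisplatin replicate 1 (10.4% of all genes), 13 without cisplatin replicate 3 (11.7%) and 17 lower with 5 higher without any cisplatin array (16.9% and 20.3%). Unmoderated tests gave 14 lower and 0 higher (7.90% and 12.0% of all genes). Median scaling moved the median of all genes to −0.17 and that of the list to −0.55, with 11 lower and 1 higher (9.08% and 5.39% of all genes). At 1 day limma called 0 of 44 (median −0.02), with 0 at an unadjusted p under 0.05 (0% and 5.38% of all genes). With cisplatin limma called 0 of 44 (median −0.02), with 7 at an unadjusted p under 0.05 (1.17% and 21.5% of all genes). Without cisplatin replicate 1 the cisplatin count was 3 higher and 7 lower, where 11.1% of all genes were higher and 16.2% lower.

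The E-box was present in a promoter of 21 of the 40 activated targets with RefSeq promoters. The share was 12.9% over the tested genes and 8.77% over all genes with RefSeq promoters. Of the 5 such genes called lower at 3 days it was in ODC1 and LDHA, of the 29 not called it was in 14, and it was in SLC7A5. These 3 are shown because they are called activated targets, in both directions, that hold the word. It was also in KLF6 and GADD45B, 2 of the 5 repressed targets called higher that have RefSeq promoters. Of the 7 such repressed targets not called, 0 held it. HK2, a called target of MLX with MondoA, held it too. The upstream start of LDHA has an E-box 185 bases (chr11:18394348-18394413, plus strand) and another 87 bases (chr11:18394446-18394511, plus strand) before it. In ODC1 the words begin 29 bases before and at base 6 after the downstream start (chr2:10447993-10448071, minus strand), and in SLC7A5 130 bases before the start (chr16:87869602-87869667, minus strand).
ODC1: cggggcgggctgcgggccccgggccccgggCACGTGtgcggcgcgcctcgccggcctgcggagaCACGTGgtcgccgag
LDHA, farther site: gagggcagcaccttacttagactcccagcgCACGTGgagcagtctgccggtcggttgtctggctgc
LDHA, nearer site: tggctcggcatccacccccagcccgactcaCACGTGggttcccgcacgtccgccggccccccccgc
SLC7A5: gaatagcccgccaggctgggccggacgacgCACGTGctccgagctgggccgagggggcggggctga
A match of letters is a description and does not show that a factor was bound there.

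Genes that MYC is known to repress leaned higher. This list too was chosen with earlier results of these data known, so its count and median are not independent evidence. The same holds for every list below. Of 20 listed, 17 were tested, of which 7 were higher, 0 lower and 10 did not pass at 3 days, where 10.1% of all genes were higher and 6.28% lower. The median log2 difference was 0.29, against 0.01 for all genes. CDKN1A, the gene of the cell cycle inhibitor p21, read 8.01, 7.31 and 7.68 at 1 day, 9.70, 9.70 and 9.64 at 3 days, 10.71, 11.06 and 11.35 with cisplatin and 6.95, 7.04 and 7.12 in controls. It was 6.26-fold higher at 3 days (log2 2.65 ± 0.20, adjusted p = 1.8e-06) and 16-fold higher with cisplatin (adjusted p = 1.2e-07), where MYC did not pass. GADD45A, a growth arrest gene, was higher by 2.29 ± 0.16 at 3 days (adjusted p = 1.12e-06) and by 2.50 ± 0.16 with cisplatin (adjusted p = 1.72e-06). CDKN1A and GADD45A are also direct targets of p53, and the study named both from these samples.

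The other repressed targets called higher at 3 days were DDIT3, a transcription factor of the integrated stress response (log2 2.41 ± 0.17, adjusted p = 1.19e-06), TXNIP, an inhibitor of thioredoxin that MLX and MondoA activate (1.81 ± 0.19, adjusted p = 4.18e-05), NDRG1 (1.63), KLF6 (1.34) and GADD45B (1.27). CDKN1B and CDKN2B, cell cycle inhibitors, and BCL2 did not pass, at 0.09 (adjusted p = 0.916), −0.04 (adjusted p = 0.901) and −0.32 (adjusted p = 0.287). With cisplatin 2 of 17 were higher and 0 lower, where limma called 0.817% of all genes higher and 0.35% lower. Without cisplatin replicate 1 it was 4 higher and 2 lower, where 11.1% of all genes were higher and 16.2% lower. At 1 day limma called 0 (median 0.16), with 3 at an unadjusted p under 0.05 (0% and 5.38% of all genes). Under median scaling the same counts, 7 higher and 0 lower, were found at 3 days, with a median of 0.03 against −0.17 for all genes.

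**Figure D4:**
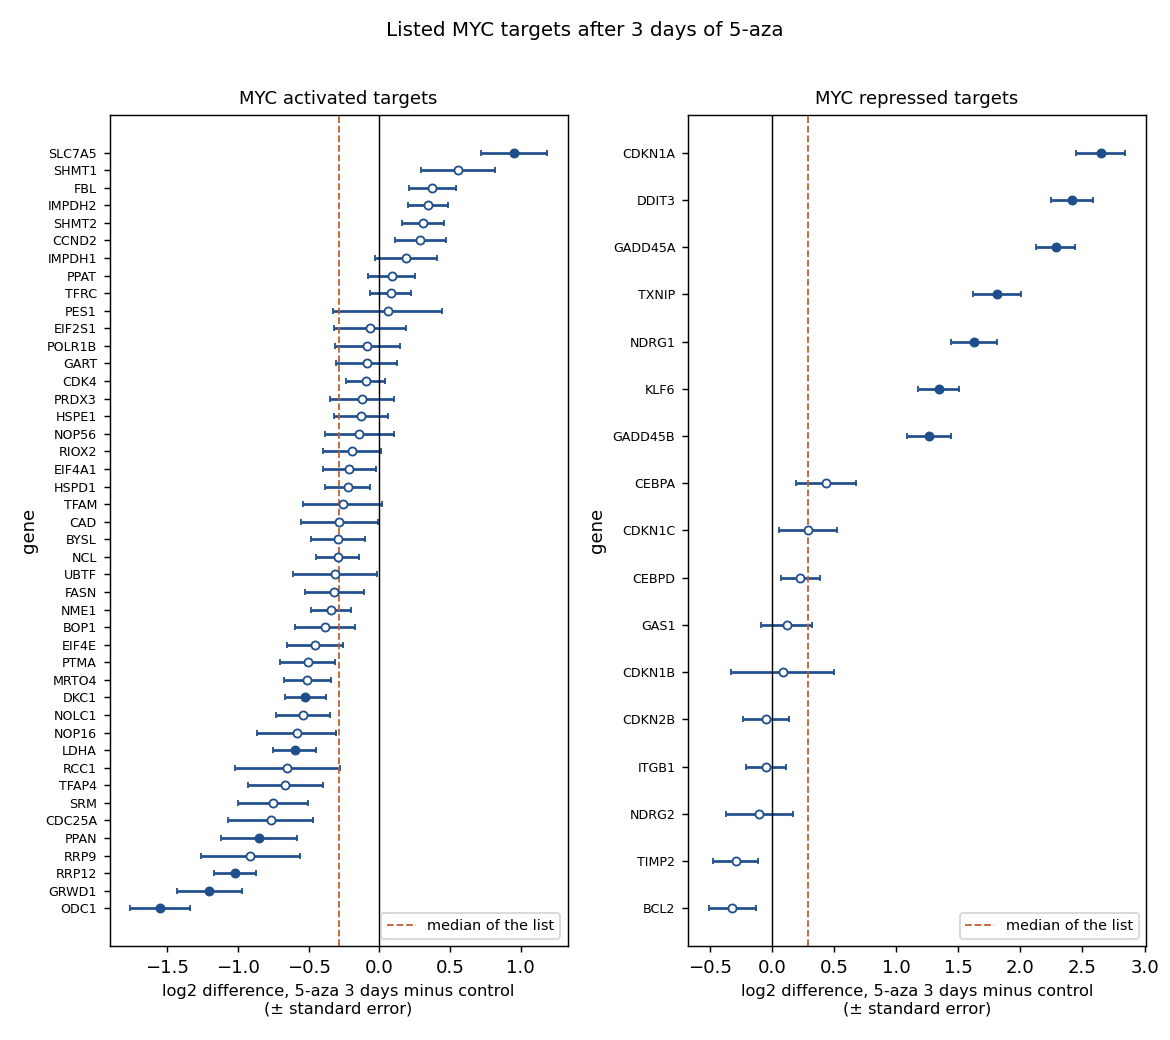
Log2 difference at 3 days of 5-aza minus control, on the x axis, of 44 tested genes listed as activated by MYC (left) and 17 listed as repressed (right). Bars are standard errors of the model, filled points have a limma adjusted p under 0.05, and dashed lines are list medians, −0.29 on the left and 0.29 on the right.

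Of 9 tested targets of MLX with MondoA, 1 was higher and 1 lower at 3 days, where 10.1% of all genes were higher and 6.28% lower. The one higher was TXNIP, given above, and the one lower was HK2, the hexokinase that starts glycolysis (log2 −1.12 ± 0.21, adjusted p = 0.00306), whose other probe was also lower (−0.84, adjusted p = 0.0134). The remaining 7 did not pass. At 1 day and with cisplatin limma called 0 of 9, with 1 at 1 day and 2 with cisplatin at an unadjusted p under 0.05. Over all genes limma called 0% and 1.17%, and 5.38% and 21.5% had an unadjusted p under 0.05.

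Of 15 tested genes that act on MYC transcription or its transcript, 3 were lower, 1 higher and 11 did not pass at 3 days, against 6.28% of all genes lower and 10.1% higher, and the median was −0.31. TCF7L1, a WNT pathway factor of pluripotent cells, was 4.39-fold lower (log2 −2.13 ± 0.31, adjusted p = 0.000565). CTCF, the insulator protein that binds upstream of MYC, was 2.51-fold lower (−1.33 ± 0.25, adjusted p = 0.00324), and HNRNPK, an RNA- and DNA-binding protein known to activate MYC, 1.98-fold lower (−0.99 ± 0.20, adjusted p = 0.00477). The other HNRNPK probes did not pass, at −0.67 (adjusted p = 0.101) and −0.62 (adjusted p = 0.211). ZFP36, which speeds decay of AU-rich transcripts, was higher (0.78 ± 0.24, adjusted p = 0.0441), and that call was lost without any 1 of the 5-aza or control arrays. At 1 day and with cisplatin limma called 0 of 15, with 2 at 1 day and 4 with cisplatin at an unadjusted p under 0.05. Over all genes limma called 0% and 1.17%, and 5.38% and 21.5% had an unadjusted p under 0.05. Without cisplatin replicate 1 the cisplatin count was 3 higher and 2 lower (11.1% and 16.2% of all genes).

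Of 18 tested cofactors, SMARCB1, a SWI/SNF subunit that binds MYC (log2 −0.84 ± 0.21, adjusted p = 0.0151), and KAT5, the TIP60 acetyltransferase (−0.50 ± 0.15, adjusted p = 0.0353), were lower, HDAC1, a deacetylase of the SIN3 complex, was higher (0.62 ± 0.20, adjusted p = 0.048), and 15 did not pass at 3 days. Over all genes 6.28% were lower and 10.1% higher. The HDAC1 call was lost in 12 of 24 alternatives and was 0.31 under median scaling (adjusted p = 0.222), and the KAT5 call was also lost in 12 of 24. The other SMARCB1 probe did not pass (−0.52, adjusted p = 0.324), the other KAT5 probe did (−0.69, adjusted p = 0.00827). Without cisplatin replicate 1 the cofactors counted 4 lower and 1 higher (10.4% and 13.8% of all genes), and without cisplatin replicate 3, 4 lower and 2 higher (11.7% and 15.3%). None of the 18 was lower without control replicate 1 or 2 or without 5-aza 3 day replicate 2 or 3.

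Genes that control the stability of MYC protein gave 0 of 15 at 3 days by limma, with 1 at an unadjusted p under 0.05, and 1 by unmoderated tests. Over all genes limma called 6.28% lower and 10.1% higher at 3 days, and unmoderated tests 7.90% and 12.0%. With cisplatin 1 of 15 was lower, against 0.35% of all genes, namely PLK1, a mitotic kinase (log2 −1.18 ± 0.22, adjusted p = 0.0219). Without cisplatin replicate 1 the cisplatin count was 3 higher and 5 lower (11.1% and 16.2% of all genes). The PLK1 call was lost in 7 of 23 alternatives, among them those without any 1 of the controls or without cisplatin replicate 2. Of 14 tested proliferation genes 1 was lower and 0 higher at 3 days, where 6.28% of all genes were lower and 10.1% higher. The median of this list was −0.22, and 10 of 14 values were below 0, against 48.5% of all genes. The one called lower was RRM2, a subunit of ribonucleotide reductase, undetected on all 3 day arrays and at least 2.68-fold lower. Its means were 6.07 at 3 days and 7.82 in controls (adjusted p = 0.0149). With cisplatin 1 was higher and 2 were lower, where limma called 0.817% of all genes higher and 0.35% lower. The one higher was TYMS, thymidylate synthase (0.78 ± 0.14, adjusted p = 0.0199). The 2 lower were the mitotic genes BUB1 (−0.98 ± 0.18, adjusted p = 0.0202) and TOP2A (−0.96 ± 0.20, adjusted p = 0.0347). TOP2A passed in 9 of 23 alternatives and BUB1 and TYMS in 17 each, and all 3 calls were lost without any 1 of the controls, with adjusted p of up to 0.14 for TOP2A, and those of BUB1 and TOP2A without cisplatin replicate 2. RRM2 did not pass once control replicate 1 or 5-aza 3 day replicate 2 or 3 was left out. The proliferation count at 3 days was 3 lower and 1 higher without cisplatin replicate 1 (10.4% and 13.8% of all genes) and likewise without cisplatin replicate 3 (11.7% and 15.3%).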

How the data were processed

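Total RNA of 12 NT2/D1 samples was hybridised to Illumina HumanHT-12 v4 arrays. The authors extracted RNA with Trizol, prepared biotinylated cRNA with the Ambion MessageAmp kit and summarised beads in GenomeStudio (version not given in the sources used here). The deposited non-normalized table holds linear bead intensity per probe, not background-subtracted, each with a detection p-value that the authors' software computed against negative control beads. The deposited normalized table holds the authors' quantile-normalized intensity and was used as an alternative. No genome build is named in either.

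The non-normalized values were background-corrected (normal-exponential model, offset 16), quantile-normalized and log2-transformed with limma 3.58.1 in R 4.3.3. Probes with detection p under 0.05 on at least 3 arrays were kept (19293). Of all probes, 30112 had 1 gene symbol, 8 several and 17111 none in the platform annotation. The brightest kept probe stood for a gene. A mean per group was fitted to 12 arrays with lmFit and eBayes, with Benjamini-Hochberg adjustment over 14295 named probes, two-sided, called at 0.05. Percentages over all genes use 11139 genes. The fit was tested on simulated data. Median intensity was 154.3 to 188.4 units per array, and 3 arrays per group limit the precision.

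The members and gene lists were chosen with earlier results of these data known. Named genes are all members and, per list and comparison, the called genes with the largest change, and others named to show the range of a list were chosen after their values were seen. Alternatives were other normalizations, offsets, filters, a replicate block, fits to fewer arrays, array weights, unmoderated tests and each array left out. Promoters came from RefSeq, searched with Python 3.11.15.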

Additional observations from a re-analysis of the deposited data

Results flagged for a closer look

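The effects of 1 and 3 days of 5-aza differed by a test of the difference itself (3 days minus 1 day, limma). For MYC the difference was −2.14 (adjusted p = 0.000323) for ILMN_1680618 and −2.76 (adjusted p = 1.61e-06) for ILMN_2110908. Among the listed genes it was −1.39 for ODC1, −1.10 for GRWD1, −0.78 for RRP12, −0.76 for NOLC1, −0.74 for HK2, −1.44 for TCF7L1 and −0.93 for CTCF (log2, adjusted p of 0.00118 for ODC1 to 0.047 for HK2). RRM2 was undetected at 3 days and at least 2.52-fold lower than at 1 day (fitted log2 difference −1.66, adjusted p = 0.0297). Of 24 alternatives HK2 passed in 12, RRM2 in 13, CTCF in 14, NOLC1 in 18 and TCF7L1 in 21, and the first 3 calls were lost without any 1 of the 1 day arrays. The difference was 2.02 for CDKN1A, 2.37 for DDIT3, 1.54 for GADD45A, 1.49 for TXNIP, 1.38 for NDRG1 and 1.47 for MLXIPL (adjusted p from 2.49e-06 for DDIT3 to 0.000854 for MLXIPL).

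A member probe left out of the tests was detected in a treated group and on no control array. MAX probe ILMN_1704236 read 6.28 on cisplatin replicate 3 (normalized log2 intensity), the only array on which it was detected.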

How the results depend on the processing

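Both MYC probes were called lower at 3 days of 5-aza against control and against 1 day under every alternative run, with log2 values of −2.29 to −1.61 and −2.66 to −1.71 against control. Of 1376 values of kept member probes recomputed, 0 reversed, 9 lost and 15 gained a call, and 49 that never passed changed sign. Of 1480 values of listed genes, 256 lost a call and 0 reversed. Counts of members called moved at 3 days against control to 2 (MYC and MXD4, only the groups compared or no cisplatin arrays), at 3 days against 1 day to 2 (median scaling, MYC and MYCN), and at 3 days against cisplatin to 2 (array weights, MYC and MAX) or 0 (unmoderated tests). Of all genes, 14.83% were lower and 17.98% higher at 3 days against control with only the groups compared. Without cisplatin arrays these shares were 16.9% and 20.3%. At 3 days against 1 day, median scaling called 5.54% of all genes lower (2.94% as reported) and set their median at −0.173. At 3 days against cisplatin, 10.997% were lower with array weights and 0.144% with unmoderated tests (9.8% as reported). With each array left out the counts of members called ran from 0 to 1 for cisplatin (MAX, without cisplatin replicate 1), from 1 to 2 at 3 days against cisplatin and from 1 to 2 for the F test. Over all genes, calls at 1 day (0) became 1 with only the groups compared, 59 without cisplatin arrays, 92 with array weights and 1 with unmoderated tests. At 3 days 1826 became 3655, 4144 and 3902 under the first 3 of these. With cisplatin 130 became 16 with only the groups compared, 1223 with array weights, 0 with unmoderated tests and 197 with cyclic loess. At 3 days against 1 day 953 became 3236, 2811, 3598 and 2355. At 3 days against cisplatin 2727 became 699 with only the groups compared and 72 with unmoderated tests. The F test's 2179 became 5203 with array weights and 1264 with unmoderated tests. Leaving out each array gave 925 to 3003 at 3 days, 35 to 3036 with cisplatin, 481 to 1725 at 3 days against 1 day, 1365 to 4525 at 3 days against cisplatin and 905 to 5083 for the F test. The cause of these moves was not tested. Under median scaling the share of calls that were higher was 37.2% at 3 days (61.7% as reported), 33.9% at 3 days against 1 day (65.6%), 21.6% at 3 days against cisplatin (60.0%) and 92.8% with cisplatin (70%, and 84.8% under cyclic loess). Replicate numbers are shared by all groups. After group means were removed, same-numbered arrays correlated at −0.518 to 0.223 and others at −0.367 to 0.551, and 3 of 12 matched best within their number. Removing means of 3 arrays forces part of these values below 0, so they cannot show whether same-numbered samples were handled together. A replicate block left the members' calls as they were and gave 78 calls over all genes with cisplatin. Dim probes limit what can be said of MAX, MXI1, MYCL, MXD1 and MXD3.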
